A study of Homo sapiens with 16 samples.

Results

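The interleukin 7 (IL7) receptor pathway was followed through 10 genes: IL7R and IL2RG, which encode the receptor, the kinase genes JAK1 and JAK3, STAT5A and STAT5B, and the inhibitor genes CISH, SOCS1, SOCS2 and SOCS3. They were chosen by gene symbol from the platform annotation. All 10 were found among the 18132 genes tested, with 30 probe sets that name 1 of them and no other gene. Each gene is given by its brightest probe set over the 16 arrays, and the dimmer ones are described beside it.

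All arrays held RNA of Nalm6, an established line of leukaemic human B-cell precursors, in 4 groups of 4. The groups were cells labelled as having active, overexpressed CASP1 with prednisolone, those cells untreated, control cells with prednisolone, and control cells untreated. Prednisolone is a synthetic glucocorticoid; the treatment protocol names it with 24 hours, the sample characteristics write "predisone", and no dose was found in the sources used here. Every group grew in RPMI1640 with heat-inactivated serum and glutamine, with no cytokine named. The series asked whether CASP1, a protease of the NALP3 inflammasome, causes glucocorticoid resistance in leukaemia by cutting the receptor. The labels do not say how the CASP1 cells were made, whether they are 1 clone, or whether arrays of a group are separate cultures, and the p-values therefore reflect the spread between these arrays alone. In such bulk samples, more RNA per cell and more cells carrying it cannot be told apart.

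IL7 is a growth factor made by stromal cells, and in mice B-cell precursors need it to survive and divide. Its receptor pairs the IL7R chain with the common gamma chain IL2RG. Binding brings together the kinases JAK1, attached to IL7R, and JAK3, attached to the gamma chain, and these phosphorylate the receptor and the transcription factors STAT5A and STAT5B. Phosphorylated STAT5 enters the nucleus and switches on genes that include CISH and SOCS family members. Their proteins bind the receptors or the kinases and damp the signal, which makes this arm a negative feedback loop. The arrays measured RNA, not phosphorylation or receptor protein.

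Of the B-cell precursor markers, 11 of 11 measured had mean signals above the median of all probe sets, which was 4.89 on the log2 scale, against 1 of 9 T and NK cell markers, 0 of 7 myeloid markers and 1 of 6 stromal markers. CASP1 went against the labels: it averaged 5.02 ± 0.26 with prednisolone and 5.69 ± 0.25 untreated in cells labelled CASP1, and 6.95 ± 0.097 with prednisolone and 7.75 ± 0.15 untreated in control cells (log2, SD, n = 4 each). Higher and lower between the lines are thus given by label only. NR3C1, the glucocorticoid receptor gene, rose with prednisolone by 0.85 in cells labelled CASP1 and 1.24 in control cells. The difference between these responses, -0.39, was not called in limma's test (adjusted p = 0.27) but was without the 4 arrays of replicate 1 (-0.41, adjusted p = 0.019). The arrays numbered replicate 1 stood apart for several members, and values without those 4 arrays are given where they change a call described here.

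Promoters of 3 genes that rose with prednisolone are shown because they differ in how often they hold the letters that STAT5 recognises. Each is the 250 bases upstream of the annotated start, from RefSeq on GRCh38.p14, read 5′ to 3′ in the direction of the gene. Capitals mark TTCNNNGAA, the STAT5 consensus, which reads the same on both strands.
CISH: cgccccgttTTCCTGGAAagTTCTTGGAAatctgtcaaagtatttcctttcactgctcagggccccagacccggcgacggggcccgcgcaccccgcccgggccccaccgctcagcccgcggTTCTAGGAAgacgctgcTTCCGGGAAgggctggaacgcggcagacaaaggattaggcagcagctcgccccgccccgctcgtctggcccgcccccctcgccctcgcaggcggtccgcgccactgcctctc
IL7R: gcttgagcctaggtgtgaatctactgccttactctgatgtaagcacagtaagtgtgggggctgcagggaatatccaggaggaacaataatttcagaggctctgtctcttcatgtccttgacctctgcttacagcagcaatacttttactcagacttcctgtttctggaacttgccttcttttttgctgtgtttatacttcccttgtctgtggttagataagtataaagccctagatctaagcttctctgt
SOCS1: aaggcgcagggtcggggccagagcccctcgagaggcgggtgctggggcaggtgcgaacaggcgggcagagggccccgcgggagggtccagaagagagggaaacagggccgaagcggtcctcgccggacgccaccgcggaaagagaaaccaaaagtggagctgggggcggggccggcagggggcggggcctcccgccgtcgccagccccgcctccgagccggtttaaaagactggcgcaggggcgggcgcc

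The CISH window, chr3:50611775-50612024 on the minus strand, holds 4 matches that do not overlap one another: TTCCTGGAA, TTCTTGGAA, TTCTAGGAA and TTCCGGGAA. They begin 241, 230, 129 and 112 bases before the start. Of 35116 promoter windows of this length, 6.57% hold at least 1 match, and 5 windows of 4 genes hold 4 or more. The IL7R window (chr5:35856641-35856890, plus strand) and the SOCS1 window (chr16:11256205-11256454, minus strand) hold none. The table gave windows for 9 of the 10 genes, all but SOCS2, and among those 9 CISH alone had a match. The full glucocorticoid response element, AGAACA and TGTTCT with any 3 bases between them, was in no window of the 9 genes and in 0.00285% of all windows. It is so rare that its absence here cannot tell whether these genes hold other receptor sites. The FOXO letters TGTTTAC, searched on both strands, were in the IL2RG window alone and in 2.98% of all windows. These matches describe letters and do not show that a factor was bound.

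With prednisolone, IL7R, CISH, SOCS1 and SOCS2 rose in both lines, and JAK1 rose in control cells. That made 4 of 10 members in cells labelled CASP1, where 2.99% of all genes rose, 3.35% fell and 6.34% did either. In control cells it was 5 of 10, where 5.73% of all genes rose, 8.43% fell and 14.2% did either. No member was called lower in either line by limma, and an unadjusted p under 0.05 added no member to these 4 and 5. Treated and untreated arrays did not overlap for the same 4 and 5 members, against 11.9% of all genes in cells labelled CASP1 and 20.9% in control cells. The median difference of the 10 members was 0.10 in cells labelled CASP1 and 0.24 in control cells, beside 0.02 and -0.01 over all genes. A gene was called, and is said to rise or fall, when its adjusted p was under 0.05 in limma's moderated test with Benjamini-Hochberg adjustment over all 18132 genes. Signals and differences are log2 values, on which 1 unit is a doubling, and n = 4 arrays per group throughout.

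**Figure D1:**
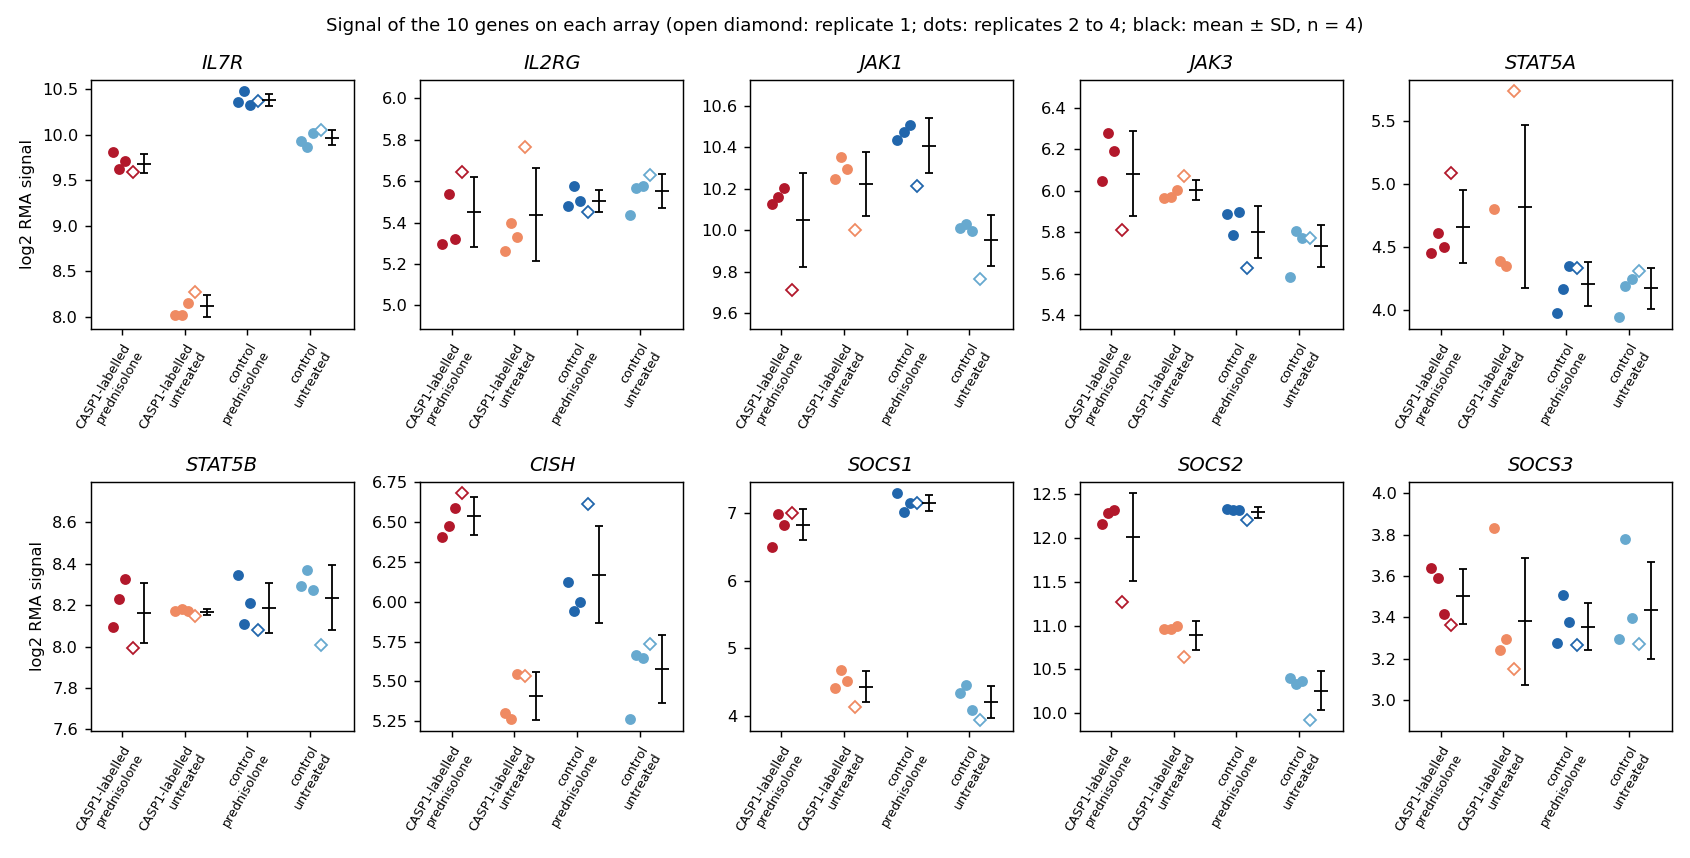
Log2 RMA signal (vertical axes, each with its own range) of the 10 genes on every array, with the 4 groups along the horizontal axis, replicate 1 as an open diamond, replicates 2 to 4 as dots, and the mean ± SD of 4 arrays in black. SOCS1 and SOCS2 separate prednisolone from untreated arrays in both lines, IL7R separates all 4 groups, and STAT5B and SOCS3 overlap between groups.

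IL7R, the ligand-binding chain, separated all 4 groups. In cells labelled CASP1 its signal was 9.59, 9.81, 9.62 and 9.71 with prednisolone, against 8.28, 8.02, 8.03 and 8.16 untreated. In control cells it was 10.36, 10.35, 10.48 and 10.33 with prednisolone, against 10.05, 9.94, 9.86 and 10.02 untreated. No group's range met another's, and untreated cells labelled CASP1 were far below the rest. The group means, high to low, were control with prednisolone (10.38), control untreated (9.97), CASP1-labelled with prednisolone (9.68) and CASP1-labelled untreated (8.12).

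IL7R rose by 1.56 in cells labelled CASP1 (SE 0.084, 2.96-fold, adjusted p = 1.5e-09) and by 0.41 in control cells (SE 0.084, 1.33-fold, adjusted p = 0.002). The test of the difference between these responses gave 1.15 (95% interval 0.90 to 1.4, adjusted p = 8.3e-05), so the rise was larger in cells labelled CASP1. IL7R was the 1 member called in that comparison, in which 0.524% of all genes were called higher, 0.364% lower and 0.888% in either direction. With prednisolone its level was lower in cells labelled CASP1 than in control cells, with a difference of -0.70 (1.62-fold, adjusted p = 2e-05), and untreated it was lower, with a difference of -1.85 (3.60-fold, adjusted p = 1e-10). All 3 IL7R probe sets were called in the same direction in all 5 comparisons, with a difference between the responses of 1.15, 1.17 and 1.28.

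IL2RG, the common gamma chain shared with the receptors of several other interleukins, was not called at its brightest probe set. Its signal was 5.45 ± 0.17 with prednisolone and 5.44 ± 0.22 untreated in cells labelled CASP1, and 5.50 ± 0.055 with prednisolone and 5.55 ± 0.083 untreated in control cells. The 95% interval of its response was -0.21 to 0.24 in cells labelled CASP1 and -0.28 to 0.18 in control cells. Its 6 probe sets did not all behave alike. Sets 3 and 5 by brightness were called lower in cells labelled CASP1 than in control cells with prednisolone, with a difference of -0.37 and -0.56, and sets 3 and 4 untreated, with a difference of -0.40 and -0.38. With prednisolone, set 5 was called lower in cells labelled CASP1 (-0.49) and set 4 in control cells (-0.40). The mean of the 6 sets was lower in cells labelled CASP1, with a difference of -0.23 with prednisolone (adjusted p = 0.024) and -0.27 untreated (adjusted p = 0.0099). That mean includes the dim sets, while the brightest set differed by -0.05 with prednisolone and -0.11 untreated, without a call.

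JAK1, the kinase bound to IL7R, rose in control cells. In cells labelled CASP1 it was 9.71, 10.12, 10.16 and 10.20 with prednisolone, against 10.0, 10.25, 10.35 and 10.29 untreated, and these groups overlapped. In control cells it was 10.21, 10.44, 10.47 and 10.51 with prednisolone, against 9.77, 10.01, 10.03 and 9.99 untreated, with no overlap. Replicate 1 was below the other 3 arrays in each of the 4 groups.

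The JAK1 difference was -0.17 in cells labelled CASP1 (95% interval -0.42 to 0.07, adjusted p = 0.49), and in control cells JAK1 rose by 0.46 (SE 0.11, 1.37-fold, adjusted p = 0.01), at 2 of its 3 probe sets. The difference between the responses was -0.63 (SE 0.16) and was not called (adjusted p = 0.087). It was called at -0.59 without the 4 arrays of replicate 1 (adjusted p = 0.0021), and at -0.70 without replicate 1 of treated control cells (adjusted p = 0.049). With prednisolone JAK1 was lower in cells labelled CASP1 than in control cells, with a difference of -0.36 (1.28-fold, adjusted p = 0.04). Leaving out 1 array ended this call in 7 cases: treated CASP1-labelled replicate 1 (-0.25, adjusted p = 0.12) or 2 (-0.38), untreated CASP1-labelled replicate 2 (-0.36), treated control replicate 2, 3 or 4 (-0.35, -0.34 and -0.32) and untreated control replicate 4 (-0.36). Without all 4 arrays of replicate 1 it was -0.31 and called (adjusted p = 0.0028). Untreated, JAK1 differed between the lines by 0.27 and was not called (adjusted p = 0.14), while without those 4 arrays it was called at 0.28 (adjusted p = 0.0048). It was also called untreated with the replicate number as a block (0.27, adjusted p = 0.013).

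JAK3, the kinase bound to the gamma chain, was not called in any of the 5 comparisons. It was 6.08 ± 0.20 with prednisolone and 6.0 ± 0.049 untreated in cells labelled CASP1, and 5.80 ± 0.13 with prednisolone and 5.73 ± 0.10 untreated in control cells. Its response lay within -0.13 to 0.29 in cells labelled CASP1 and -0.14 to 0.28 in control cells (95% intervals). Between the lines its difference was 0.28 with prednisolone (adjusted p = 0.064) and 0.27 untreated (adjusted p = 0.086). Without the 4 arrays of replicate 1 these were 0.31 and 0.26, and both were called (adjusted p = 0.013 and 0.036). None of its 5 probe sets was called.

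STAT5A and STAT5B, neighbours on chromosome 17 that encode closely related proteins, were not called for prednisolone. STAT5B averaged 8.16 ± 0.15 with prednisolone and 8.17 ± 0.014 untreated in cells labelled CASP1, and 8.19 ± 0.12 with prednisolone and 8.24 ± 0.16 untreated in control cells. Its response lay within -0.21 to 0.20 in cells labelled CASP1 and -0.25 to 0.15 in control cells. STAT5A varied more between arrays. In cells labelled CASP1 it was 5.09, 4.45, 4.61 and 4.5 with prednisolone, against 5.74, 4.80, 4.39 and 4.35 untreated, with replicate 1 highest in both groups. In control cells it was 4.34, 3.98, 4.17 and 4.35 with prednisolone, against 4.31, 3.95, 4.19 and 4.25 untreated. Every array labelled CASP1 was above every control array of the same treatment, by a narrow margin at the nearest values. Only replicate 1 of cells labelled CASP1, treated and untreated, lay above 4.89, the median of all probe sets. The other STAT5A values were below it and not shown to be above background, so the sizes of the differences are uncertain.

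The STAT5A difference between the lines was 0.46 with prednisolone (adjusted p = 0.2) and 0.65 untreated (adjusted p = 0.069). The untreated value was called without the 4 arrays of replicate 1 (0.39, adjusted p = 0.048), without untreated CASP1-labelled replicate 3 or 4 (0.79 and 0.80) and without treated CASP1-labelled replicate 1 (0.65). It was also called with the replicate number as a block (0.65, adjusted p = 0.018). The treated value was called without untreated CASP1-labelled replicate 1 (0.46, adjusted p = 0.037). The second STAT5A probe set differed by 0.15 with prednisolone and 0.08 untreated and was not called. Whether probes of one STAT5 gene also bind RNA of the other was not tested.

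CISH, which binds phosphorylated cytokine receptors and competes with STAT5 for them, rose in both lines. In cells labelled CASP1 it was 6.68, 6.41, 6.48 and 6.59 with prednisolone, against 5.53, 5.30, 5.26 and 5.55 untreated. In control cells it was 6.61, 6.13, 5.94 and 6.0 with prednisolone, against 5.74, 5.26, 5.67 and 5.65 untreated. Treated and untreated arrays did not overlap in either line, and replicate 1 was the highest treated array in both.

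CISH rose by 1.13 in cells labelled CASP1 (SE 0.14, 2.19-fold, adjusted p = 3.3e-05) and by 0.59 in control cells (SE 0.14, 1.51-fold, adjusted p = 0.0059). The difference of 0.54 between the responses was not called (adjusted p = 0.29). It was called without the 4 arrays of replicate 1 (0.62, adjusted p = 0.046) and without replicate 1 of treated control cells (0.68, adjusted p = 0.049). With prednisolone the difference between the lines was 0.37 (adjusted p = 0.08), and 0.47 without the 4 arrays of replicate 1 (adjusted p = 0.0085). CISH had 1 probe set. It is also the gene whose promoter, shown above, holds 4 STAT5 consensus matches.

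SOCS1, which binds JAK kinases and blocks them, rose in both lines. In cells labelled CASP1 it was 7.0, 6.50, 6.99 and 6.83 with prednisolone, against 4.13, 4.41, 4.68 and 4.52 untreated. In control cells it was 7.14, 7.29, 7.01 and 7.15 with prednisolone, against 3.95, 4.34, 4.46 and 4.09 untreated. Every treated array was far above every untreated one, and the untreated values all lay below the array medians, which ran from 4.85 to 4.93.

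SOCS1 rose by 2.40 in cells labelled CASP1 (SE 0.14, 5.26-fold, adjusted p = 4e-09) and by 2.94 in control cells (SE 0.14, 7.67-fold, adjusted p = 1.3e-10). Its untreated values were not shown to be above background, so the sizes of these rises are uncertain. The difference of -0.54 between the responses was not called (adjusted p = 0.28). The second, dimmer SOCS1 probe set rose by 0.56 in cells labelled CASP1 and 0.89 in control cells (adjusted p = 0.034 and 4e-04), the same direction at a smaller size. At that set treated and untreated arrays overlapped in cells labelled CASP1 but not in control cells. At the mean of both sets the SOCS1 difference was 1.48 in cells labelled CASP1 and 1.91 in control cells.

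SOCS2, best known as a brake on growth hormone signalling, rose in both lines. In cells labelled CASP1 it was 11.26, 12.15, 12.29 and 12.32 with prednisolone, against 10.64, 10.96, 10.96 and 11.0 untreated. Control cells had 12.20, 12.33, 12.31 and 12.32 with prednisolone, against 9.93, 10.40, 10.33 and 10.37 untreated. Replicate 1 was the lowest array in each of the 4 groups, and lay 0.99 below the mean of the other 3 in treated cells labelled CASP1.

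SOCS2 rose by 1.12 in cells labelled CASP1 (SE 0.18, 2.17-fold, adjusted p = 0.00062) and by 2.03 in control cells (SE 0.18, 4.10-fold, adjusted p = 2.8e-07). The difference between the responses was -0.92 and was not called (adjusted p = 0.12). It was called at -0.67 without the 4 arrays of replicate 1 (adjusted p = 0.0013), and at -0.67 when replicate 1 was dropped from treated cells labelled CASP1 alone (adjusted p = 0.041). Untreated SOCS2 was higher in cells labelled CASP1 than in control cells by 0.63 (1.55-fold, adjusted p = 0.024), and with prednisolone the difference was -0.28 (adjusted p = 0.33). The untreated call ended without untreated CASP1-labelled replicate 2, 3 or 4 (0.61, 0.61 and 0.60) or untreated control replicate 1 (0.52). It was kept without all 4 arrays of replicate 1 (0.61, adjusted p = 2.2e-05). Both SOCS2 probe sets were called for the untreated difference and for prednisolone in both lines.

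SOCS3, a brake on receptors that signal through IL6ST, had a signal below the median of all probe sets on every array. Its mean was 3.50 with prednisolone and 3.38 untreated in cells labelled CASP1, and 3.36 with prednisolone and 3.44 untreated in control cells. It was called in no comparison, and its response lay within -0.17 to 0.41 in cells labelled CASP1 and -0.37 to 0.21 in control cells. Its second probe set was not called either.

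**Figure D2:**
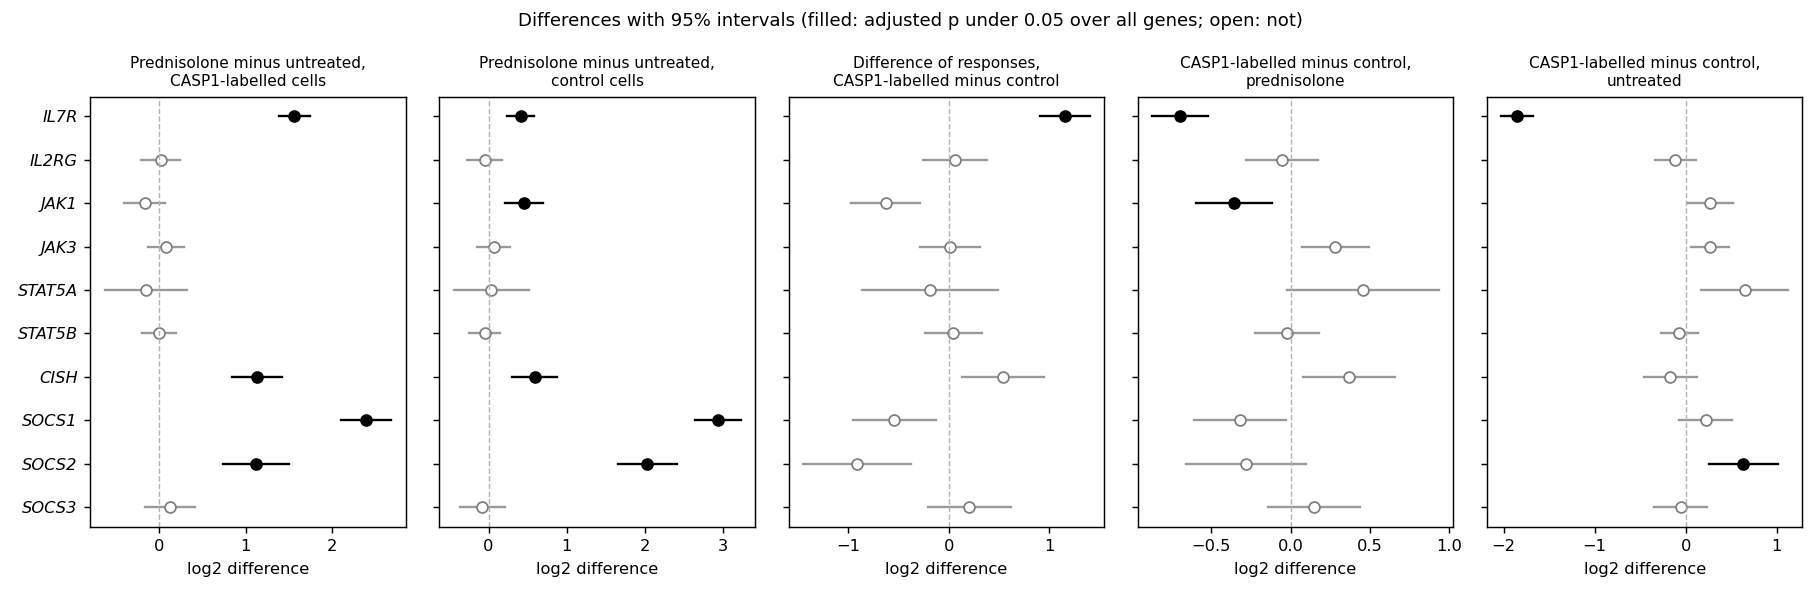
Log2 differences of the 10 genes (horizontal axes, with their own ranges) in the 5 comparisons, each with its 95% interval from limma. Filled points were called at an adjusted p under 0.05 over all genes and open points were not. For prednisolone the filled points are IL7R, CISH, SOCS1 and SOCS2 in cells labelled CASP1, with JAK1 added in control cells, and IL7R alone is filled in the difference of the responses.

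Between the lines, 2 members were called with prednisolone, IL7R and JAK1, both lower in cells labelled CASP1, where 7.88% of all genes were higher, 8.52% lower and 16.4% either. Untreated, 2 were called, SOCS2 higher and IL7R lower, where 5.87% of all genes were higher, 8.2% lower and 14.1% either. In limma's test, 5 members had an unadjusted p under 0.05 with prednisolone, 5 untreated and 5 for the difference of the responses. The share of all genes at that level was not counted here, so these 3 counts have no baseline and cannot be set against all genes. The lines did not overlap for 4 members with prednisolone and 4 untreated, against 19.7% and 21.7% of all genes. Member medians were -0.04 with prednisolone and 0.08 untreated, beside 0.04 and 0.01 over all genes. Without the 4 arrays of replicate 1, 4 members were called with prednisolone (CISH and JAK3 added), 5 untreated (JAK1, JAK3 and STAT5A added) and 4 for the difference of the responses (JAK1, CISH and SOCS2 added). Calls over all genes also became more frequent in that fit, at 22.4% with prednisolone, 21.4% untreated and 4.01% for the difference of the responses. Same-numbered arrays of the untreated lines deviated together, and with the replicate number as a block JAK1 (0.27, adjusted p = 0.013) and STAT5A (0.65, adjusted p = 0.018) were added there, which made 4. The share of all genes called with the block is not given here, so that count has no baseline.

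**Figure D3:**
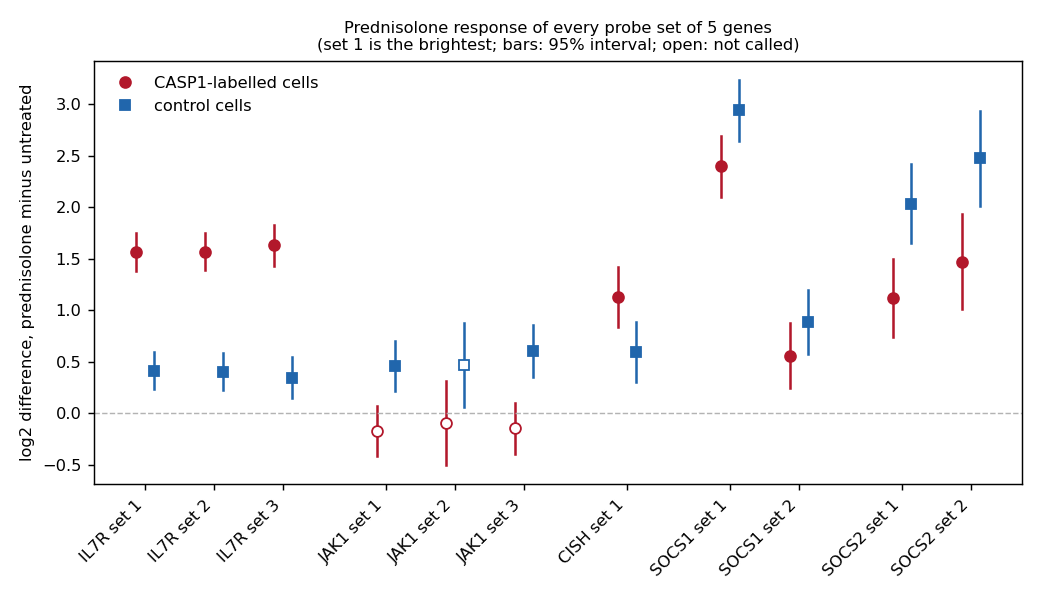
Log2 difference between prednisolone and untreated arrays (vertical axis, with 95% intervals) for every probe set of the 5 genes called, numbered by brightness along the horizontal axis. Circles are cells labelled CASP1 and squares control cells, and open symbols were not called over all probe sets that name 1 gene. The IL7R sets lie close together in each line, from 1.56 to 1.63 in cells labelled CASP1 and from 0.34 to 0.41 in control cells, while the SOCS1 sets differ in size.

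For the 4 members whose group means spanned at least 1 log2 unit, the 3 genes with the highest Pearson r over the 16 arrays were taken, as a description, since all arrays share the 4 groups. For IL7R they were TBC1D14 (r = 0.96), the tyrosine phosphatase gene UBASH3B (r = 0.95) and ARHGEF10 (r = 0.944). UBASH3B rose by 0.95 in cells labelled CASP1 and differed by 0.32 in control cells, and its untreated level was lower in cells labelled CASP1 than in control cells, with a difference of -1.78. For CISH they were TMCC3 (r = 0.944), the dexamethasone-induced GTPase gene RASD1 (r = 0.932) and THAP4 (r = 0.931). For SOCS1 they were PIK3IP1, which encodes an inhibitor of PI3 kinase (r = 0.985), SMIM3 and the tetraspanin gene CD53 (r = 0.983 each). For SOCS2 they were the factor gene KLF13 (r = 0.981), the DNA methyltransferase gene DNMT3B (r = 0.98) and BCL7A (r = 0.977). DNMT3B rose by 1.56 in cells labelled CASP1 and 2.42 in control cells, and RASD1 rose by 1.76 in cells labelled CASP1 and 1.53 in control cells. In limma's test the difference between the responses was not called for UBASH3B (0.63, adjusted p = 0.077), DNMT3B (-0.86, adjusted p = 0.13) or RASD1 (0.24, adjusted p = 0.75).

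Related genes were counted in 5 lists. Of 30 other cytokine and receptor genes measured, 3 were called higher and 2 lower with prednisolone in cells labelled CASP1, and 3 higher and 1 lower in control cells, with list medians of 0.02 and 0.03. Beside these counts, and those of the other lists for prednisolone, stand 6.34% of all genes called in cells labelled CASP1 and 14.2% in control cells, and in control cells the share of this list was no larger than that of all genes. IL6ST, the shared chain of the interleukin 6 receptor family, rose by 0.73 in cells labelled CASP1 and 1.10 in control cells. FLT3, a growth factor receptor of early progenitors with a signal below 4.89, the median of all probe sets, on every array, rose by 0.83 in cells labelled CASP1 and 0.75 in control cells. IFNGR1, a chain of the interferon gamma receptor, rose by 0.54 in cells labelled CASP1 and 0.74 in control cells. KIT, the stem cell factor receptor, fell by 0.58 in cells labelled CASP1 and fell by 0.54 in control cells. IL3RA, the interleukin 3 receptor chain, fell by 0.46 in cells labelled CASP1 and differed by -0.17 in control cells, and the difference between the responses was not called (adjusted p = 0.65). Without the 4 arrays of replicate 1, 3 genes of this list were called in cells labelled CASP1, where 11.9% of all genes then were. All 3 were higher, and neither KIT (-0.46, adjusted p = 0.12) nor IL3RA (-0.36, adjusted p = 0.056) was called.

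KIT also differed between the lines. It was 4.80, 5.34, 5.30 and 5.16 with prednisolone and 5.76, 5.37, 5.89 and 5.90 untreated in cells labelled CASP1. Control cells gave 3.45, 3.45, 3.08 and 2.77 with prednisolone and 3.78, 3.68, 3.50 and 3.96 untreated, all below the median of all probe sets and not shown to be above background, so the sizes of the fall in control cells and of the differences between the lines are uncertain. The lines did not overlap, and KIT was higher in cells labelled CASP1 by 1.96 with prednisolone and 2.0 untreated (adjusted p = 3.9e-07 and 3.8e-07). IL3RA was higher in cells labelled CASP1 by 0.49 with prednisolone and 0.79 untreated. IL4R, which also pairs with the common gamma chain, was lower there, with a difference of -0.42 with prednisolone and -0.47 untreated.

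**Figure D4:**
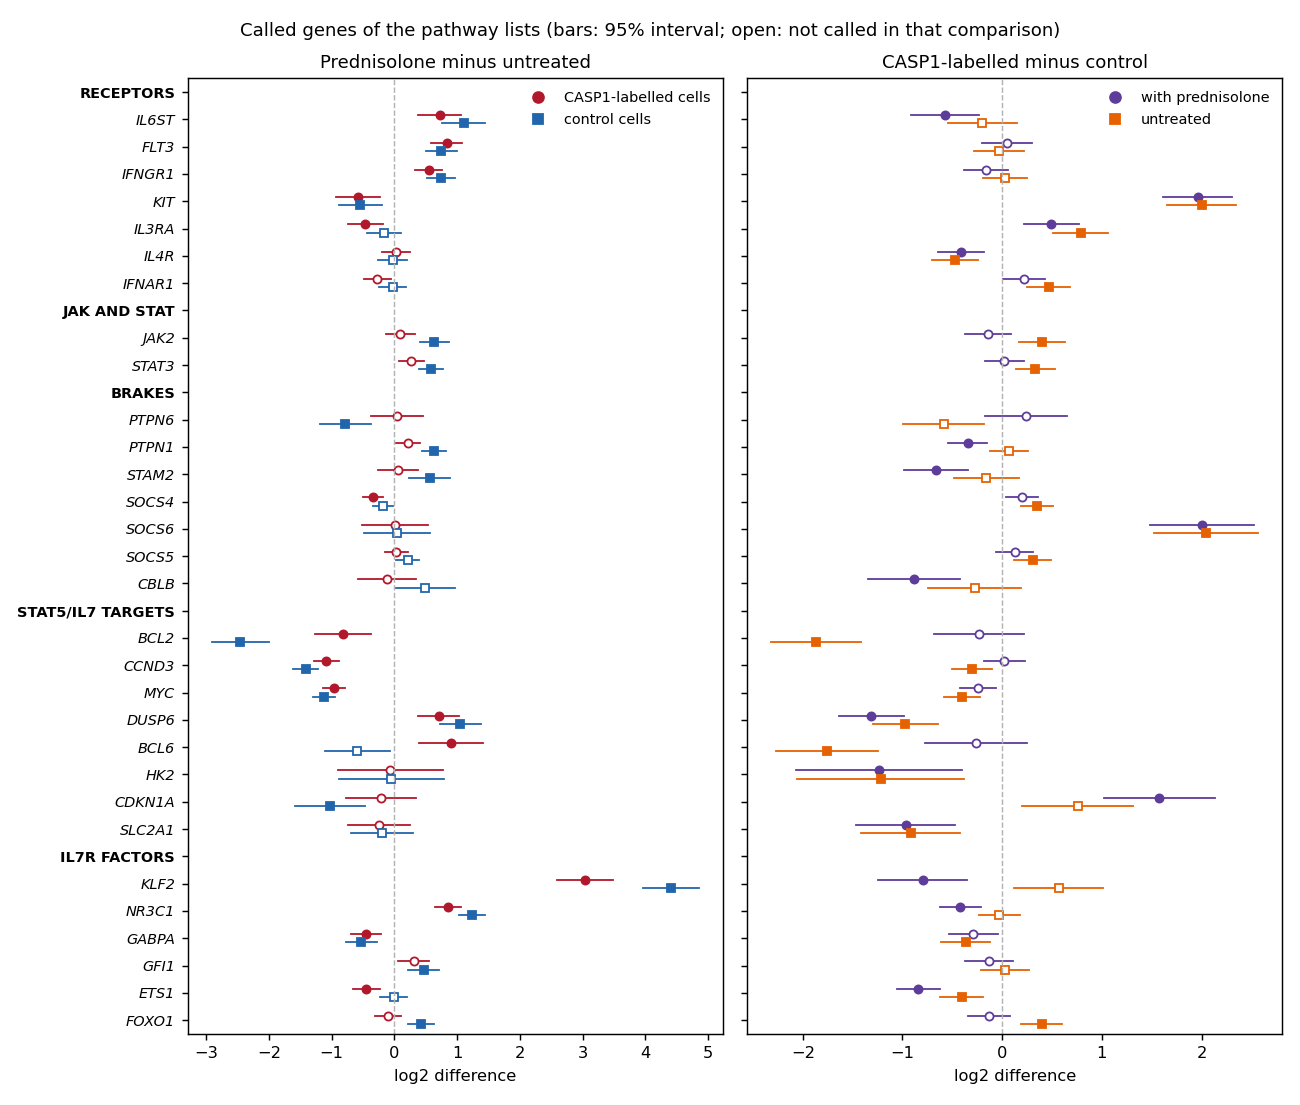
Log2 differences with 95% intervals (horizontal axes) for the called genes of the 5 pathway lists, by list. The left panel gives prednisolone minus untreated in cells labelled CASP1 (circles) and control cells (squares), the right panel CASP1-labelled minus control cells with prednisolone (circles) and untreated (squares), and open symbols were not called. KLF2 has the largest rise and BCL2 the largest fall in the left panel, and KIT and SOCS6, whose control signals lay below the median of all probe sets, lie farthest to the right in the right panel.

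Of 5 other JAK and STAT genes measured, 0 were called for prednisolone by limma in cells labelled CASP1, with 2 at an unadjusted p under 0.05, and 2 rose in control cells. JAK2, the kinase of many other cytokine receptors, differed by 0.09 in cells labelled CASP1 and rose by 0.63 in control cells (adjusted p = 0.00049). STAT3, the main factor of the interleukin 6 family, differed by 0.27 in cells labelled CASP1 and rose by 0.58 in control cells (adjusted p = 0.00018). Neither difference between the responses was called (adjusted p = 0.14 for JAK2 and 0.39 for STAT3). Without the 4 arrays of replicate 1, STAT3 was called higher in cells labelled CASP1 too (0.36, adjusted p = 0.0047). Both were higher in untreated cells labelled CASP1 than in untreated control cells, JAK2 by 0.40 and STAT3 by 0.33.

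Among 17 other brakes on cytokine signalling, 1 was called with prednisolone in cells labelled CASP1, the SOCS family gene SOCS4, which fell by 0.34 and differed by -0.19 in control cells. In control cells 3 were called: PTPN1, a phosphatase that acts on JAK kinases, rose by 0.63 (adjusted p = 6.8e-05), STAM2, an adaptor in receptor sorting, rose by 0.56, and PTPN6, the phosphatase SHP-1, fell by 0.78 (adjusted p = 0.009). Both counts were near the shares of all genes called, 6.34% in cells labelled CASP1 and 14.2% in control cells. PTPN1 differed by 0.21, STAM2 by 0.06 and PTPN6 by 0.04 in cells labelled CASP1, without a call. None of these 4 genes was called for the difference between the responses (adjusted p = 0.7 for SOCS4, 0.18 for PTPN1, 0.42 for STAM2 and 0.23 for PTPN6). Without the 4 arrays of replicate 1, 6 brakes were called in control cells, where 21.9% of all genes then were, and the PTPN6 difference between the responses was called at 0.73 (adjusted p = 0.0023).

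SOCS6, another gene of the SOCS family, differed between the lines. It was 5.26, 4.91, 4.94 and 4.71 with prednisolone and 5.41, 4.83, 4.27 and 5.27 untreated in cells labelled CASP1. Control cells had 3.68, 2.65, 2.83 and 2.64 with prednisolone and 3.37, 2.83, 2.55 and 2.86 untreated, all below the median of all probe sets and not shown to be above background, so the sizes of the differences are uncertain. It was higher in cells labelled CASP1 by 2.0 with prednisolone and 2.04 untreated (adjusted p = 2.6e-05 and 2.4e-05), and its response to prednisolone was 0.01 in cells labelled CASP1 and 0.05 in control cells, neither called.

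The 24 genes known as STAT5 or IL7 targets were called in both directions. With prednisolone 3 were called higher and 5 lower in cells labelled CASP1, and 4 rose and 5 fell in control cells. CCND3, a cyclin of the G1 phase, was 10.31, 10.15, 10.46 and 10.37 with prednisolone, against 11.70, 11.29, 11.37 and 11.28 untreated, in cells labelled CASP1. Control cells gave 10.30, 10.37, 10.30 and 10.23 with prednisolone, against 11.76, 11.64, 11.72 and 11.74 untreated. It fell by 1.08 in cells labelled CASP1 and fell by 1.41 in control cells (adjusted p = 6.1e-07 and 1.2e-08), with no overlap in either line. MYC, a driver of growth, fell by 0.96 in cells labelled CASP1 and fell by 1.12 in control cells, and DUSP6, a phosphatase of ERK kinases, rose by 0.71 in cells labelled CASP1 and 1.05 in control cells.

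BCL2 and BCL6 were the target genes whose responses differed between the lines. BCL2, a survival gene that STAT5 supports in lymphocytes, was 6.99, 5.86, 5.97 and 5.79 with prednisolone, against 7.53, 6.75, 6.70 and 6.92 untreated, in cells labelled CASP1. Control cells had 6.51, 6.39, 6.28 and 6.35 with prednisolone, against 8.99, 8.86, 8.74 and 8.77 untreated. It fell by 0.82 in cells labelled CASP1 and fell by 2.46 in control cells, a difference between the responses of 1.63 (adjusted p = 0.012), and its untreated level was lower in cells labelled CASP1, with a difference of -1.87.

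BCL6, a transcriptional repressor, was 7.85, 6.70, 7.25 and 7.11 with prednisolone, against 6.89, 6.29, 5.96 and 6.18 untreated, in cells labelled CASP1. Control cells gave 6.77, 7.82, 7.72 and 7.67 with prednisolone, against 7.86, 8.18, 8.14 and 8.14 untreated. Replicate 1 was the highest treated array in cells labelled CASP1 and the lowest in control cells. BCL6 rose by 0.90 in cells labelled CASP1 (adjusted p = 0.033), was at -0.59 without a call in control cells (-0.42 and called without the 4 arrays of replicate 1, adjusted p = 0.025), and its difference between the responses was 1.49, at the edge of the threshold (adjusted p = 0.05 after rounding). Its untreated level was lower in cells labelled CASP1, with a difference of -1.75. Without the 4 arrays of replicate 1, 4 target genes were called for the difference of the responses, where 4.01% of all genes then were.

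Among 13 factors known to act on IL7R transcription, 2 were called higher and 3 lower with prednisolone in cells labelled CASP1, and 4 rose and 1 fell in control cells. KLF2, a factor of lymphocyte quiescence, was 8.86, 8.86, 9.15 and 8.97 with prednisolone, against 5.95, 5.74, 6.10 and 5.90 untreated, in cells labelled CASP1. Control cells had 9.09, 9.93, 10.13 and 9.89 with prednisolone, against 4.72, 5.65, 5.27 and 5.78 untreated. It rose by 3.04 in cells labelled CASP1 and 4.41 in control cells, and the difference between the responses was -1.36 (adjusted p = 0.038). GFI1, another factor of this list, differed by 0.31 in cells labelled CASP1 without a call and rose by 0.47 in control cells (adjusted p = 0.0095). Without the 4 arrays of replicate 1 it was called higher in cells labelled CASP1 too (0.39, adjusted p = 0.013).

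GABPA, an activator of IL7R in mouse lymphocytes, fell by 0.45 in cells labelled CASP1 and fell by 0.53 in control cells. FOXO1, another activator of IL7R in mouse lymphocytes, differed by -0.10 in cells labelled CASP1 and rose by 0.43 in control cells (adjusted p = 0.0057), and the difference between the responses was not called (adjusted p = 0.1) but was without the 4 arrays of replicate 1 (-0.43, adjusted p = 0.015). ETS1, a factor of the ETS family, fell by 0.45 in cells labelled CASP1 and differed by -0.01 in control cells, without a call. The ETS1 difference between the responses, -0.44, was not called (adjusted p = 0.23) but was without the 4 arrays of replicate 1 (-0.52, adjusted p = 0.013). ETS1 was lower in cells labelled CASP1 than in control cells, with a difference of -0.84 with prednisolone (adjusted p = 2.2e-05) and -0.40 untreated (adjusted p = 0.012). FOXO1 went the other way untreated, higher in cells labelled CASP1 by 0.39, and differed by -0.13 with prednisolone without a call. GABPA was lower there untreated (-0.36), and KLF2 (-0.80) and NR3C1 (-0.42) were lower with prednisolone. Of the 13 factors, 0 were higher and 3 lower with prednisolone, and 1 higher and 2 lower untreated. Over all genes, 16.4% were called with prednisolone and 14.1% untreated.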

How the data were processed

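Gene expression was measured on 16 Affymetrix PrimeView arrays. The deposited table holds log2 signals of 49395 probe sets, which the authors computed by RMA according to the submitters' processing notes; no source used here names the software or the probe set definition. RMA scales arrays to one distribution, so total RNA per cell was not measured, and it can understate differences of dim probe sets. The platform annotation gave 44988 probe sets 1 gene, 1832 several and 2473 none, beside 102 controls. The brightest set of each gene gave 18132 genes.

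Group means were fitted with limma 3.58.1 (R 4.3.3) over all 16 arrays (12 residual and 5.46 prior degrees of freedom), and p-values were adjusted over every gene with the Benjamini-Hochberg method. The code was tested on simulated data. The number of arrays limits the precision.

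Named were CASP1, NR3C1, the 10 members, up to 4 called genes with the largest difference per list and comparison, and the 3 genes most like a member. Members, lists and tests were chosen with earlier results of these data known. Same-numbered arrays were checked for shared deviations from their group means. The correlations ran from 0.147 to 0.434 between the untreated groups, all over 0.1, and at least 1 of 4 was under 0.1 in each other comparison, so numbers were taken to pair arrays in the untreated comparison only. That rule decided narrowly for prednisolone, where 3 of 4 were over 0.1 in each line, with a highest value of 0.507 in control cells. Main values come from the fit without the block in every comparison, the untreated one included. Alternatives changed the scaling, the filter, the probe set summary, the variance prior, the arrays fitted and the replicate block.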

Additional observations from a re-analysis of the deposited data

Results flagged for a closer look

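The response of IL7R to prednisolone differed between the lines by 1.15 (cells labelled CASP1 minus control cells, limma's interaction test, adjusted p = 8.3e-05). Single arrays stood far from the other 3 of their group, relative to the group's range, in 7 of 40 groups of member values, where chance gives about 1 in 20. SOCS2 accounted for 4 of them, each with replicate 1 below the rest: 11.3 in treated and 10.6 in untreated cells labelled CASP1, and 12.2 in treated and 9.93 in untreated control cells. JAK1 accounted for 2, again with replicate 1 lowest, at 9.71 in treated cells labelled CASP1 and 9.77 in untreated control cells. The last was JAK3 in untreated control replicate 2, at 5.59.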

How the results depend on the processing

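Each member was refitted under 24 alternatives per comparison (23 for the interaction), 1185 values in all, of which 1137 kept direction and call, 14 lost a call, 34 gained one and none reversed. The 9 prednisolone calls, and the IL7R calls between the lines and in the interaction, were kept in every alternative run. With prednisolone between the lines, JAK1 lost its call when arrays were centred on the 75th percentile (-0.32, adjusted p = 0.062), when its probe sets were averaged (-0.37, adjusted p = 0.07) and when the 2 groups were fitted alone (-0.36, adjusted p = 0.095), and ran from -0.42 to -0.25 without single arrays. Untreated SOCS2 ran from 0.52 to 0.72. Members called with prednisolone between the lines were 4 after a second quantile normalization, 4 with the replicate block, 4 without the 4 arrays of replicate 1, 1 with the 2 groups alone, and 1 to 3 without single arrays. Untreated they were 4 with the replicate block, 5 without replicate 1 and 1 to 4 without single arrays. In the interaction they were 3, 4 and 1 to 3. Between the lines, among these alternatives, the share of all genes called is given only for the fit without replicate 1. The replicate block called JAK1 (adjusted p = 0.005) and SOCS2 (adjusted p = 0.014) in the interaction, and CISH (0.023) and JAK3 (0.049) with prednisolone between the lines, and moved no prednisolone count. Of 16 arrays, 8 correlated best with their own number, a hint from the data and not the design. Leaving out the dimmest 30% of genes removed SOCS3. Genes called without the 4 arrays of replicate 1 numbered 2161 instead of 1150 for prednisolone in cells labelled CASP1, 3969 instead of 2568 in control cells, 3876 instead of 2552 between the untreated lines and 727 instead of 161 in the interaction, which gave 289 with the replicate block and 96 to 268 without single arrays; prednisolone in cells labelled CASP1 gave 688 with the 2 groups alone. In an alternative chosen after seeing the data, list counts without replicate 1 moved for the brakes (7 instead of 3 between untreated lines, 6 instead of 3 for prednisolone in control cells, 2 instead of 0 in the interaction), the IL7R factors (4 instead of 1) and targets (4 instead of 2) in the interaction, and receptors (3 instead of 5) and other JAK and STAT genes (1 instead of 0) for prednisolone in cells labelled CASP1. The cause of these shifts was not tested.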
